A study of Sus scrofa with 18 samples.

Results

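The 10 genes described here encode regulators of apoptosis of the BCL2 family, and they were taken from the deposited gene count table by symbol: the survival genes BCL2, BCL2L1, MCL1 and BCL2A1, the BH3-only genes PMAIP1, BBC3, BCL2L11 and BID, and the effector genes BAX and BAK1. All 10 were found among the 30686 rows of the table, each in 1 row, and all 10 passed the filter on low counts with 13592 genes in all. RNA was sequenced from alveolar macrophages, the phagocytes that live in the airspaces of the lung, of healthy Danish Landrace-Yorkshire pigs. The cells were kept ex vivo for 24 hours with no treatment (control), with poly I:C, with Bacillus subtilis, with Enterococcus faecium, or with poly I:C combined with either bacterium, and each of the 6 treatments had 3 libraries whose titles name pigs 1 to 3. Cells sense poly I:C, a man-made RNA duplex, as they sense viral RNA, and both bacteria are gram-positive species. The sources used here do not give doses, bacterial strains, the age of the pigs or the number of cells.

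BCL2 family proteins decide whether the outer membrane of the mitochondrion stays closed. BAX and BAK1 are the effectors that open it and release cytochrome c, which switches on caspases; the survival proteins BCL2, BCL-XL (the product of BCL2L1), MCL1 and BCL2A1 hold the effectors and the BH3-only proteins in check; and BH3-only proteins such as NOXA (PMAIP1), PUMA (BBC3), BIM (BCL2L11) and BID occupy the survival proteins or engage the effectors directly. In macrophages, which are long-lived and meet viral RNA and bacteria, MCL1 and BCL2A1 are known as survival genes that inflammatory signals raise, and PMAIP1 is known as a gene that virus-sensing pathways can switch on. Messenger RNA was measured, so protein amounts, protein cleavage and cell death are outside these data.

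The libraries held between 16.3 and 27.3 M (mega) counts. The pig numbers paired the libraries in only part of the treatments. After the treatment means were removed, and with the 10 genes left out, the 9 same-numbered pairs among control, poly I:C and B. subtilis with poly I:C had a mean correlation of 0.565 across genes (lowest 0.413), and the 36 other same-numbered pairs had -0.113. A grouping into 3 sets with 1 library of each treatment gave a mean of 0.616 within sets. The next best of 7776 groupings gave 0.451. These sets, called A, B and C below, match the numbers in control, poly I:C and B. subtilis with poly I:C (1 is A, 2 is B, 3 is C), and 8 libraries of the other treatments carry a number of another set. In the order A, B and C the libraries are numbered 3, 1 and 2 for B. subtilis, 3, 2 and 1 for E. faecium, and 3, 1 and 2 for E. faecium with poly I:C. The sources used here do not say what the sets stand for. Tests below use no block. Values with the set as a block are given where they change the call of a member, or the count of a pathway list in a comparison with control. Since the sets were found in the same data, p-values with that block may be too small. All 10 macrophage markers examined were detected, with summed levels of 2714 to 3279 CPM (counts per M counts of the library, after TMM scaling) in control and 3972 to 6414 CPM in B. subtilis with poly I:C. Single markers moved both ways against control in the test used below. With B. subtilis plus poly I:C SIGLEC1, CD14 and SPI1 rose and CD163 fell (log2 change -1.26, SE 0.47). With B. subtilis alone CD14 rose (2.38, SE 0.47) and CSF1R fell (-1.29, SE 0.27). Macrophage marker calls depended on the block. Using the set as a block, 4 rose and 3 fell with poly I:C in place of 2 and 0. For B. subtilis alone 2 rose and 4 fell in place of 1 and 1. Of the T, NK and B cell markers, NKG7 ranged from 195 to 476 CPM while MS4A1 stayed at or under 0.874 CPM. The list summed to 319 to 437 CPM in control and 231 to 500 CPM elsewhere. CD2, at 5.41 to 38.5 CPM, rose with poly I:C by 1.57 on the log2 scale (SE 0.43). It also rose with B. subtilis plus poly I:C (1.71, SE 0.43) and with E. faecium plus poly I:C (1.39, SE 0.43). Among neutrophil markers MPO was at 0 in every library, yet S100A12 ranged from 547 to 3265 CPM, and the summed list was 695 to 1317 CPM in control against 2221 to 3119 CPM with B. subtilis alone. Among epithelial markers EPCAM ranged from 27.4 to 389 CPM with KRT8 at or under 3.5 CPM; that list summed to 29 to 153 CPM in control and 132 to 390 CPM with B. subtilis. The endothelial and fibroblast list stayed at or under 8.96 CPM and the erythrocyte list at or under 22.6 CPM. The part of other cells in the results was not tested, and in these bulk samples fewer cells of a type and less RNA per cell cannot be told apart.

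**Figure D1:**
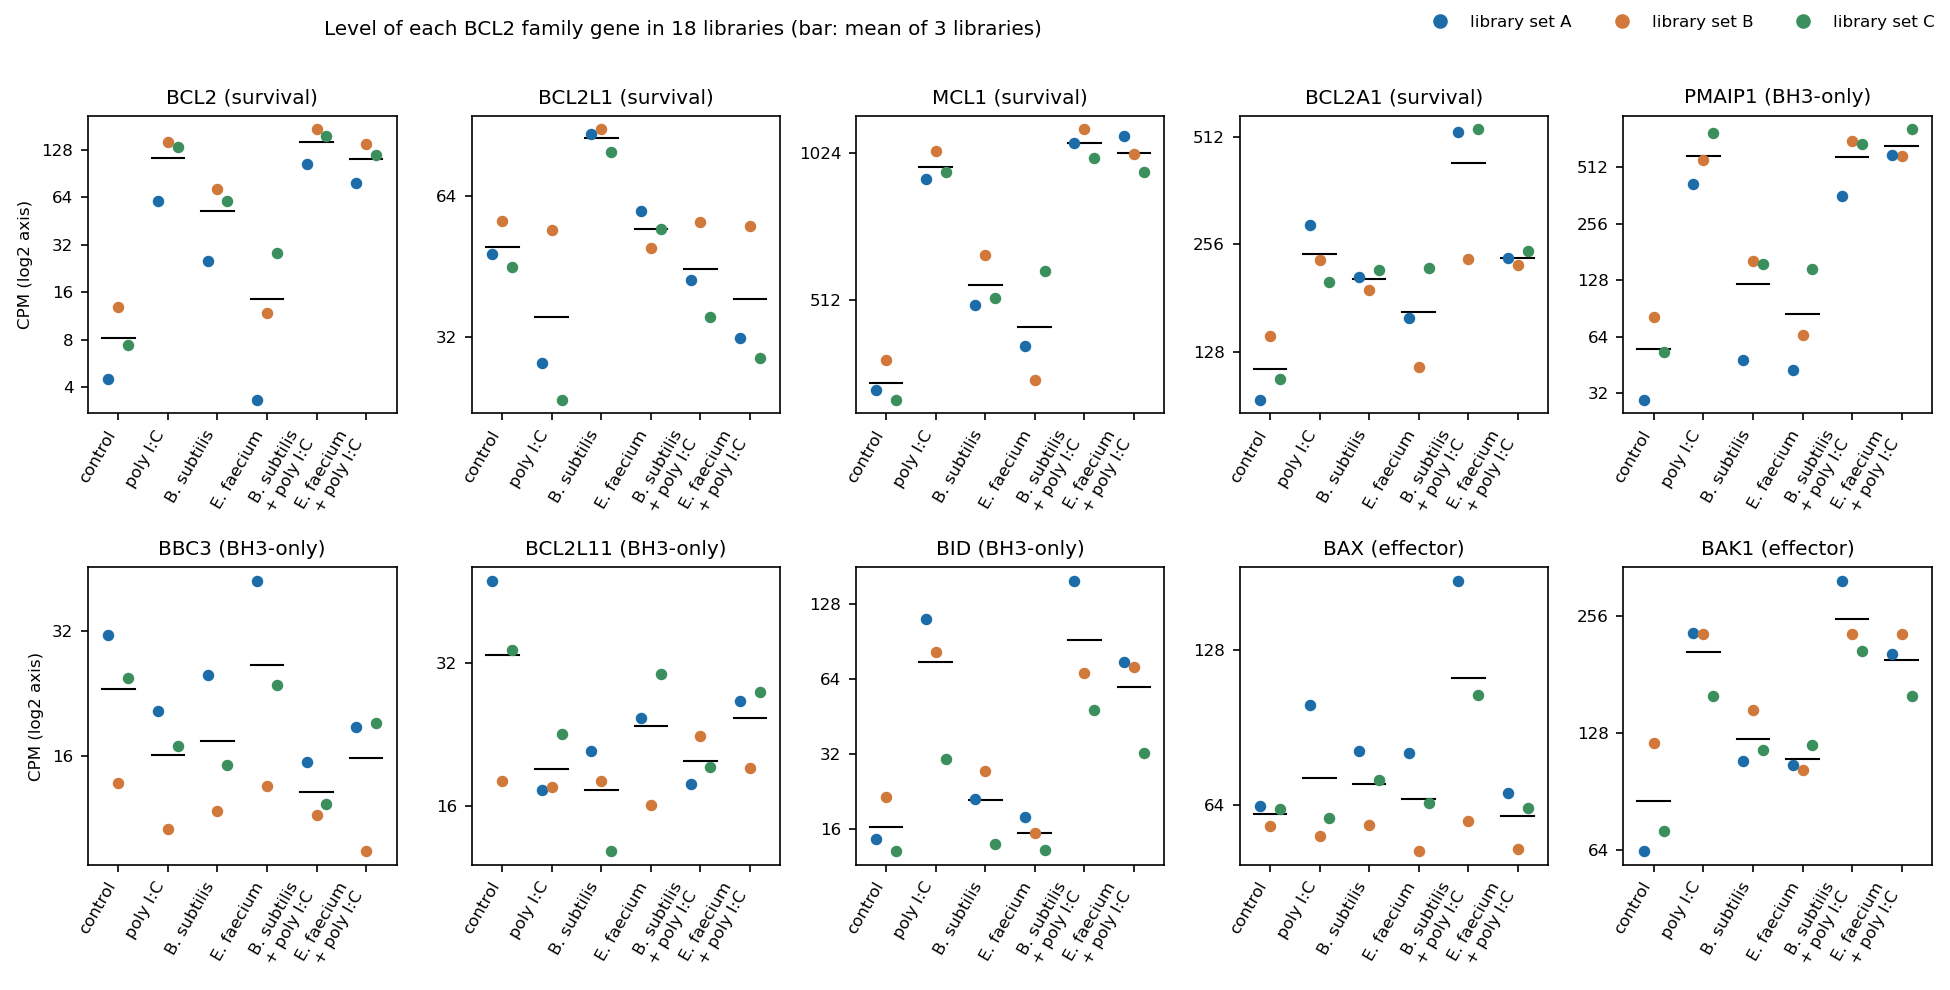
Level of each of the 10 genes (CPM after TMM scaling, log2 axis) by treatment, with 1 point per library coloured by library set and a bar at the mean of 3 libraries. BCL2, MCL1, BCL2A1, PMAIP1, BID and BAK1 sit higher in all 9 libraries with poly I:C than in the 3 controls. The share of all genes separated in this way was not computed. BCL2L1 is highest in the 3 B. subtilis libraries, and BBC3 is lowest in set B in every treatment.

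Poly I:C raised 6 of the 10 genes (edgeR quasi-likelihood test, Benjamini-Hochberg adjusted p below 0.05), and in this comparison 22.5% of all genes tested were called. BCL2, PMAIP1, BID, MCL1, BAK1 and BCL2A1 rose, so both survival and death-promoting genes moved up. With E. faecium plus poly I:C the same 6 rose against a background of 23.1%, and with B. subtilis plus poly I:C those 6 and BAX rose against 35.6%. B. subtilis alone raised BCL2 and no other member past the threshold, with 4.44% of all genes called. With E. faecium alone 0 members and 0% of all genes were called by edgeR, although 278 genes had an unadjusted p below 0.05 (0 of them members) and DESeq2 called 38 genes (0 members). These 5 comparisons share the 3 control libraries.

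BCL2, the founding survival gene, had the largest change against control among the 10 genes with poly I:C, B. subtilis, E. faecium and both combined treatments. Its gene (ID 100049703) lies on chromosome 1, from 158337403 to 158518214 of Sscrofa11.1. Its level was 4.49, 12.9 and 7.34 CPM in the control libraries of sets A, B and C. With poly I:C it was 60.4, 145 and 134 CPM, with B. subtilis plus poly I:C 104, 173 and 156 CPM, and with E. faecium plus poly I:C 79.4, 139 and 119 CPM. Every library with poly I:C lay above every library without it except for 1 reversal, the B. subtilis library of set B at 72.5 CPM against the poly I:C library of set A. The log2 fold change with poly I:C was 3.78 (SE 0.66, 95% interval 2.38 to 5.18), a 13.7-fold rise, with an edgeR adjusted p of 0.000809. It was 4.13 (SE 0.67, edgeR adjusted p = 0.000284) with B. subtilis plus poly I:C and 3.77 (SE 0.66, edgeR adjusted p = 0.000783) with E. faecium plus poly I:C.

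With B. subtilis alone BCL2 reached 25.2, 72.5 and 60.3 CPM in sets A, B and C, all above the controls. The log2 fold change was 2.68 (SE 0.63, 95% interval 1.34 to 4.02; edgeR adjusted p = 0.0248), a 6.40-fold rise, and within sets it was 2.46, 2.48 and 3.02. The call depended on single libraries: the log2 change was 2.38 without the control of set A (edgeR adjusted p = 0.116), 2.60 without that of set C (0.120), 2.38 without the B. subtilis library of set B (0.0893) and 2.58 without that of set C (0.0854). With E. faecium alone the libraries did not move alike. BCL2 was 3.33, 11.8 and 28.3 CPM, so sets A and B lay slightly under their controls and set C above its control by 1.93 log2 units, and the fitted change of 0.81 had a 95% interval from -0.46 to 2.09.

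BCL2L1, which encodes BCL-XL, was the survival gene that did not pass the test with poly I:C. Its gene (ID 397536) lies on chromosome 17, from 35366139 to 35415798. It was 87.2, 89.2 and 79.7 CPM with B. subtilis in sets A, B and C, above the libraries of every other treatment, against 48.1, 56.7 and 45.1 CPM in control. The log2 fold change with B. subtilis was 0.77 (SE 0.29, 95% interval 0.15 to 1.40; edgeR adjusted p = 0.173), and with the set as a block 0.79 (edgeR adjusted p = 0.0166). When poly I:C was present the sets separated: poly I:C alone gave 28.1 and 23.4 CPM in sets A and C but 54.1 CPM in set B, next to its control of 56.7 CPM. E. faecium plus poly I:C showed the same split, with 31.7 and 28.9 CPM in sets A and C and 55.4 CPM in set B. The log2 change with poly I:C was -0.50 (95% interval -1.13 to 0.12; edgeR adjusted p = 0.250), it was -0.56 with the set as a block (edgeR adjusted p = 0.0430), and it was -0.96 without the poly I:C library of set B (edgeR adjusted p = 0.0248).

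MCL1, whose short-lived protein guards BAK1, had the smallest standard errors of the 10 genes. Its gene (ID 397648) lies on chromosome 4, from 98562092 to 98567014. The controls were 333, 384 and 319 CPM and the 9 libraries with poly I:C lay between 903 and 1146 CPM, with no overlap. The log2 fold change was 1.47 (SE 0.20; edgeR adjusted p = 0.000153) with poly I:C, 1.64 (SE 0.21; edgeR adjusted p = 4.49e-05) with B. subtilis plus poly I:C and 1.57 (SE 0.21; edgeR adjusted p = 9.17e-05) with E. faecium plus poly I:C, and leaving out any 1 library of these comparisons ended none of the 3 calls. B. subtilis alone gave 499.7, 633 and 515 CPM, above every control, with a log2 change of 0.67 (95% interval 0.24 to 1.10; edgeR adjusted p = 0.0770) that was past the threshold with the set as a block (edgeR adjusted p = 0.0197) and in DESeq2 (adjusted p = 0.00591). The E. faecium libraries, at 411, 349.5 and 585 CPM, overlapped the controls.

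BCL2A1, a survival gene of blood cells that NF-kB induces, had the largest difference of the 10 genes when B. subtilis was added to poly I:C, a difference given further down that did not pass the test. Its gene (ID 100156860) lies on chromosome 7, from 48887227 to 48897667. It was 94.3, 142 and 108 CPM in control and 291, 231 and 201 CPM with poly I:C, a log2 change of 1.07 (SE 0.30; edgeR adjusted p = 0.0164). That call was lost without the control of set A (0.95, edgeR adjusted p = 0.0760), the control of set C (1.03, 0.0629) or the poly I:C library of set A (0.91, 0.0645). With B. subtilis plus poly I:C it was 528 and 537 CPM in sets A and C and 232 CPM in set B, next to the 231 CPM of poly I:C alone. The log2 change against control was 1.91 (SE 0.30; edgeR adjusted p = 0.000233). E. faecium plus poly I:C gave 234, 225 and 245 CPM (log2 change 1.03, SE 0.30; edgeR adjusted p = 0.0193), and that call was lost without the control of set A (0.91, edgeR adjusted p = 0.0843), the control of set C (0.99, 0.0701) or the E. faecium plus poly I:C library of set C (1.00, 0.0544). With B. subtilis alone all 3 libraries, at 207, 191 and 218 CPM, lay above the controls, with a log2 change of 0.84 (95% interval 0.21 to 1.46; edgeR adjusted p = 0.134; with the set as a block 0.0473).

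**Figure D2:**
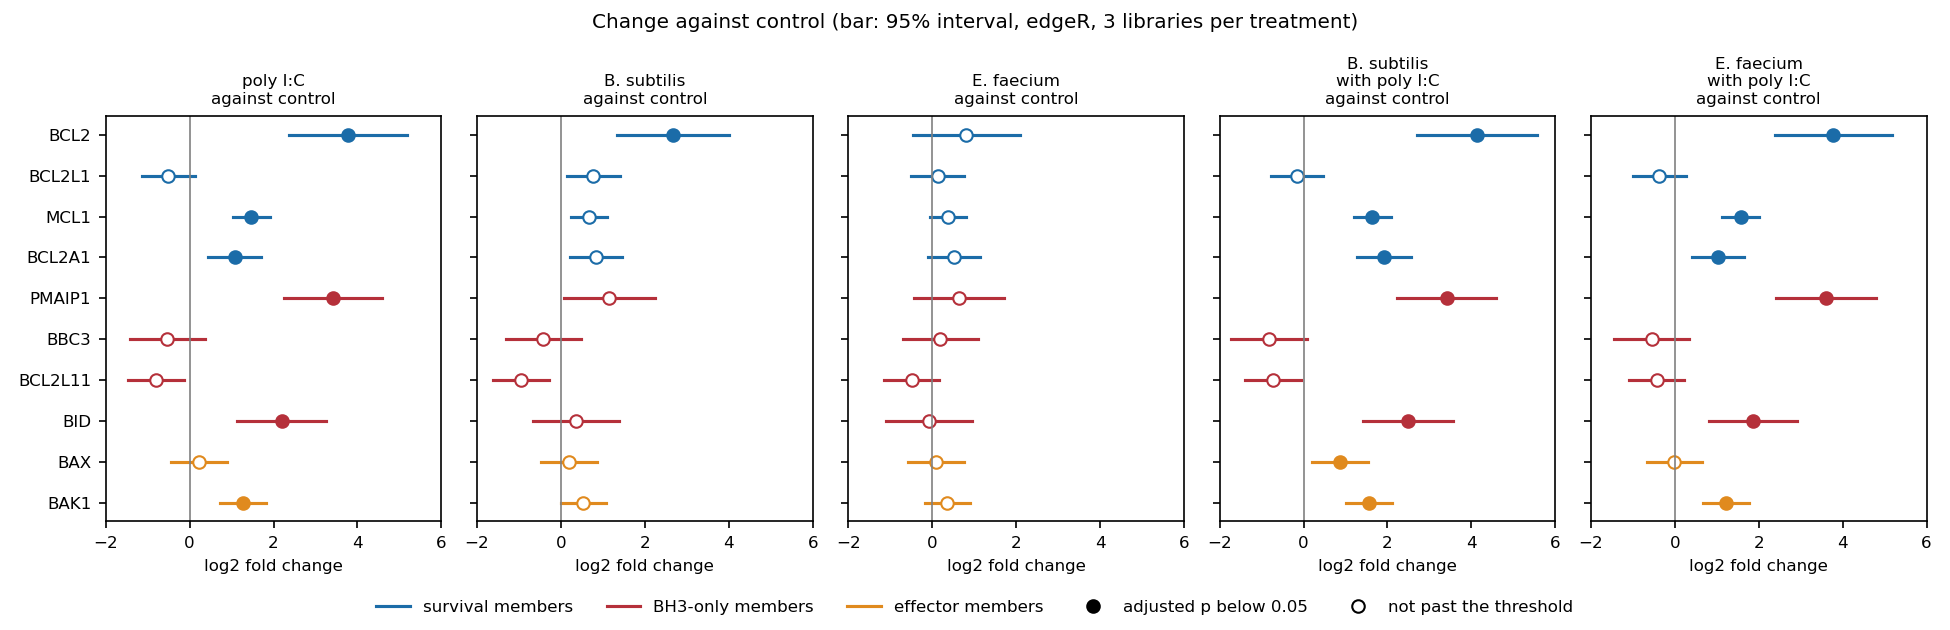
Log2 fold change against control of each gene (points) with its 95% interval (bars) from edgeR with 3 libraries per treatment, coloured by role; filled points passed an adjusted p of 0.05. With poly I:C, BCL2 at 3.78 and PMAIP1 at 3.42 lie farthest to the right, and BCL2L1, BBC3 and BCL2L11 lie left of 0 with open points.

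Among the BH3-only genes PMAIP1, which encodes NOXA, an inhibitor of MCL1 and BCL2A1, had the largest rise. Its gene (ID 397278) lies on chromosome 1, from 161184458 to 161188138. The controls were 29.6, 81.9 and 53 CPM. Poly I:C gave 417, 562 and 779 CPM, B. subtilis plus poly I:C 360.1, 708 and 678 CPM, and E. faecium plus poly I:C 598, 585 and 817 CPM. The 9 libraries with poly I:C all lay above the 9 without it, whose highest value was 162 CPM. The log2 fold changes were 3.42 (SE 0.55; edgeR adjusted p = 0.000466), 3.41 (SE 0.55; edgeR adjusted p = 0.000284) and 3.61 (SE 0.56; edgeR adjusted p = 0.000326). B. subtilis alone gave 48.2, 162 and 157 CPM, higher than the control of the same set in 3 of 3 sets, with a log2 change of 1.16 (95% interval 0.07 to 2.24; edgeR adjusted p = 0.253; with the set as a block 0.0235).

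BID links death receptors to the mitochondrion, since caspase-8 cleaves its protein into an active form. Its gene (ID 594852) lies on chromosome 5, from 69849007 to 69874647. It was 14.5, 21.4 and 13 CPM in control and 111, 82.3 and 30.4 CPM with poly I:C in sets A, B and C, so it was higher than control in every set but reached a lower level in set C. The same order of sets appeared with B. subtilis plus poly I:C (158, 67.5 and 47.9 CPM) and with E. faecium plus poly I:C (74.8, 71.2 and 32.3 CPM). The log2 changes were 2.20 (SE 0.50; edgeR adjusted p = 0.00509), 2.48 (SE 0.50; edgeR adjusted p = 0.00157) and 1.87 (SE 0.49; edgeR adjusted p = 0.0125). The last call was lost without the control of set A (1.79, edgeR adjusted p = 0.0521) or the control of set C (1.73, 0.0580). With either bacterium alone the libraries, from 13.1 to 27.4 CPM, overlapped the controls.

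BBC3 and BCL2L11 were not called as raised in any comparison with control. BBC3 encodes PUMA, a p53 target that can bind every survival protein, and its gene (ID 100517403) lies on chromosome 6, from 53037103 to 53046902. It was 31.2, 13.7 and 24.7 CPM in control, 20.5, 10.7 and 16.9 CPM with poly I:C and 15.5, 11.5 and 12.3 CPM with B. subtilis plus poly I:C. Within each set all 3 treatments with poly I:C were lower than control, with log2 differences from -1.01 to -0.25. B. subtilis alone was lower as well, by -0.32, -0.22 and -0.69 in sets A, B and C. With E. faecium alone the differences were 0.44, -0.02 and -0.06. Set B was low throughout, and the treatments with poly I:C overlapped the controls through the low control of that set. For B. subtilis alone the set A library, at 25.0 CPM, also exceeded the control of set C. The E. faecium library of set A, at 42.2 CPM, exceeded every control. The fitted change with B. subtilis plus poly I:C was -0.83 (95% interval -1.74 to 0.08; edgeR adjusted p = 0.145). With the set as a block that change was -0.73 (edgeR adjusted p = 0.00611) and the one with E. faecium plus poly I:C was -0.54 (edgeR adjusted p = 0.0389).

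BCL2L11 encodes BIM, a strong activator of the effectors and a binder of all survival proteins. Its gene (ID 396632) lies on chromosome 3, from 45156791 to 45202996. The controls themselves differed, with 47.5 CPM in set A, 18 CPM in set B and 33.9 CPM in set C, while the 15 treated libraries lay between 12.8 and 30.3 CPM. The fitted log2 change was -0.79 with poly I:C (95% interval -1.46 to -0.13; edgeR adjusted p = 0.0836), -0.95 with B. subtilis (95% interval -1.61 to -0.28; edgeR adjusted p = 0.114) and -0.74 with B. subtilis plus poly I:C (95% interval -1.41 to -0.07; edgeR adjusted p = 0.0785). In set B the differences from control were -0.04, 0.002 and 0.31, and in set A -1.46, -1.19 and -1.41. Without the control of set B the 3 fitted changes were -1.09 (edgeR adjusted p = 0.0152), -1.24 (0.0285) and -1.04 (0.0132). With the set as a block the changes with poly I:C (edgeR adjusted p = 0.0421) and with B. subtilis (0.0367) were past the threshold.

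The effectors differed from each other. BAK1, whose protein sits in the outer mitochondrial membrane, has its gene (ID 397543) on chromosome 7, from 29808849 to 29815345, and it was 63.4, 121 and 71.7 CPM in control. It was 231, 229 and 159 CPM with poly I:C, 314, 229.8 and 208 CPM with B. subtilis plus poly I:C and 204, 229 and 159.6 CPM with E. faecium plus poly I:C. Each of these 9 libraries lay above all 9 libraries without poly I:C. The log2 changes were 1.28 (SE 0.26; edgeR adjusted p = 0.00218), 1.56 (SE 0.26; edgeR adjusted p = 0.000346) and 1.21 (SE 0.26; edgeR adjusted p = 0.00305). B. subtilis alone gave a change of 0.53 (95% interval -0.01 to 1.07; edgeR adjusted p = 0.299).

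BAX, whose protein moves from the cytosol to the mitochondrion, stayed near its control level in most libraries. Its gene (ID 396633) lies on chromosome 6, from 54222341 to 54228150. The controls were 63.7, 58.4 and 63.0 CPM (SD 2.88 CPM), and poly I:C gave 100.2, 56.0 and 60.6 CPM (log2 change 0.23, 95% interval -0.44 to 0.89). With B. subtilis plus poly I:C it was 174, 59.8 and 105 CPM. Sets A and C lay above all controls and set B at its control, and the log2 change was 0.87 (SE 0.31; edgeR adjusted p = 0.0414). This call was lost when any of 5 of the 6 libraries was left out: without the set A library of that treatment the change was 0.42 (edgeR adjusted p = 0.277), without the set C library 0.92 (0.0665), and without the control of set A, B or C it was 0.89 (0.0886), 0.83 (0.103) or 0.88 (0.0923).

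Set against each other by role, the survival genes had the larger mean change in all 5 treatments with BCL2 included. With poly I:C present that order of the means, though not of the medians, depended on BCL2. Changes here are on the scale of the mean log2 difference from the control mean of each gene. With B. subtilis alone the 4 survival genes changed by 0.99, 1.43 and 1.30 in sets A, B and C and the 6 death-promoting genes by 0.13, 0.26 and 0.06. The death-promoting mean minus the survival mean was -1.09 ± 0.20 (SD, n = 3), and no library of that treatment overlapped the controls, which ran from -0.33 to 0.26. With poly I:C both means rose, the survival genes by 1.44 ± 0.27 and the death-promoting genes by 0.97 ± 0.19 (SD, n = 3). The difference was -0.04, -0.85 and -0.50 in sets A, B and C, and the set A library lay among the controls. With B. subtilis plus poly I:C the difference was -0.76 ± 0.25, with E. faecium plus poly I:C -0.54 ± 0.33 and with E. faecium alone -0.25 ± 0.45 (SD, n = 3). The set A library of E. faecium plus poly I:C, at -0.24, lay among the controls. So did the set A library of E. faecium alone, at 0.25, where the death-promoting mean was the higher. The other libraries of these treatments lay below the controls. By median fold change the order was the same: with poly I:C 1.27 for survival and 0.75 for death-promoting genes beside -0.01 for all genes tested, and with B. subtilis 0.81 and 0.27 beside -0.02. Of the 4 survival genes 3 rose with poly I:C, and of the 6 death-promoting genes 3 rose, beside 22.5% of all genes called. No test was made of the difference between roles. With BCL2 left out, an alternative chosen after seeing the data, the death-promoting mean minus the mean of the other 3 survival genes was 0.32 ± 0.30 with poly I:C and 0.24 ± 0.27 with E. faecium plus poly I:C (SD, n = 3). The set B libraries of these treatments were at -0.02 and -0.06. With B. subtilis plus poly I:C the difference was 0.02 ± 0.14 (SD, n = 3), with libraries from -0.11 to 0.17, so neither role led. This alternative dropped the survival gene with the largest rise and kept PMAIP1, the death-promoting gene with the largest rise, so a shift in this direction was built in. With B. subtilis alone the difference of means without BCL2 stayed negative, at -0.62 ± 0.05 (SD, n = 3), and with E. faecium alone it was -0.21 ± 0.09 (SD, n = 3). By median the other 3 survival genes stayed ahead with poly I:C present. Their median log2 fold change was 1.07 with poly I:C against 0.75 for the death-promoting genes. It was 1.64 against 1.21 with B. subtilis plus poly I:C and 1.03 against 0.60 with E. faecium plus poly I:C.

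**Figure D3:**
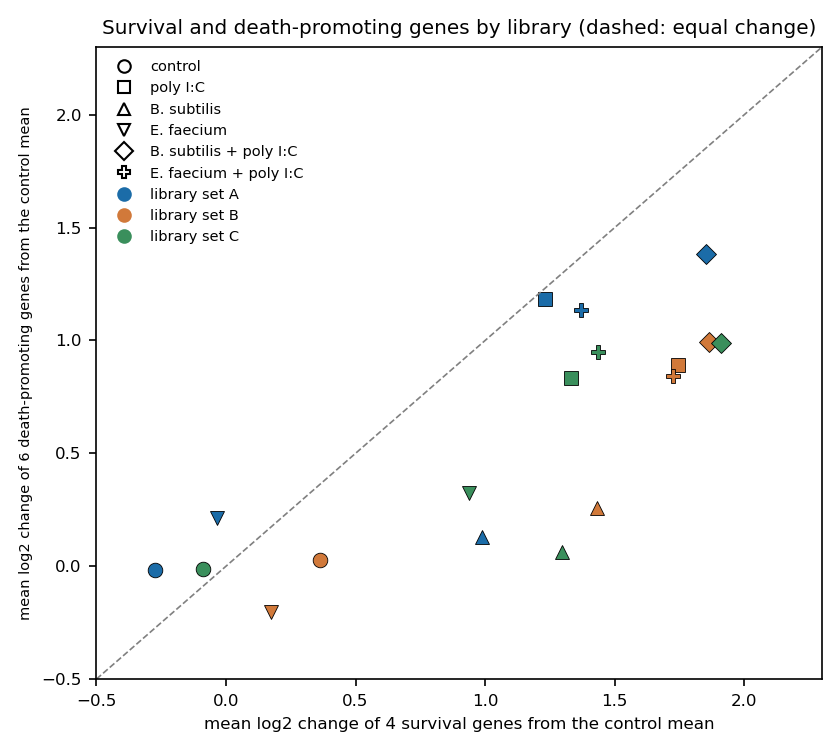
Mean log2 change of the 6 death-promoting genes against that of the 4 survival genes, each measured from the control mean, with 1 point per library; the symbol gives the treatment, the colour the library set and the dashed line equal change. The 3 B. subtilis libraries lie far under the line with survival means of 0.99 to 1.43 and death-promoting means of 0.06 to 0.26, and the libraries with poly I:C lie higher on both axes. The survival mean includes BCL2, without which the difference with poly I:C changes from -0.47 to 0.32.

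Ratios of counts within a library give the balance of partners with no scaling between libraries; since the genes differ in length, a ratio is compared only between libraries and not read as a ratio of molecules. NOXA binds MCL1, and there were 8.88, 21.3 and 16.6 PMAIP1 counts per 100 MCL1 counts in the controls of sets A, B and C. With poly I:C there were 46.2, 54.5 and 83.1, so every library was above every control. B. subtilis alone left the ratio at 9.64, 25.5 and 30.4. BCL2L11 per 100 MCL1 counts went the other way, from 14.3, 4.69 and 10.6 in control to 1.91, 1.70 and 2.41 with poly I:C and 4.17, 2.85 and 2.49 with B. subtilis, all below all controls. The mix of survival genes changed as well. There were 9.35, 22.8 and 16.3 BCL2 counts per 100 BCL2L1 counts in control, 28.9, 81.2 and 75.6 with B. subtilis, and 215, 267 and 572 with poly I:C, with no overlap between these 3 treatments. BAK1 per 100 BAX counts was 99.6, 206 and 114 in control and 230, 410 and 262 with poly I:C, and set B was the highest in each of the 6 treatments.

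**Figure D4:**
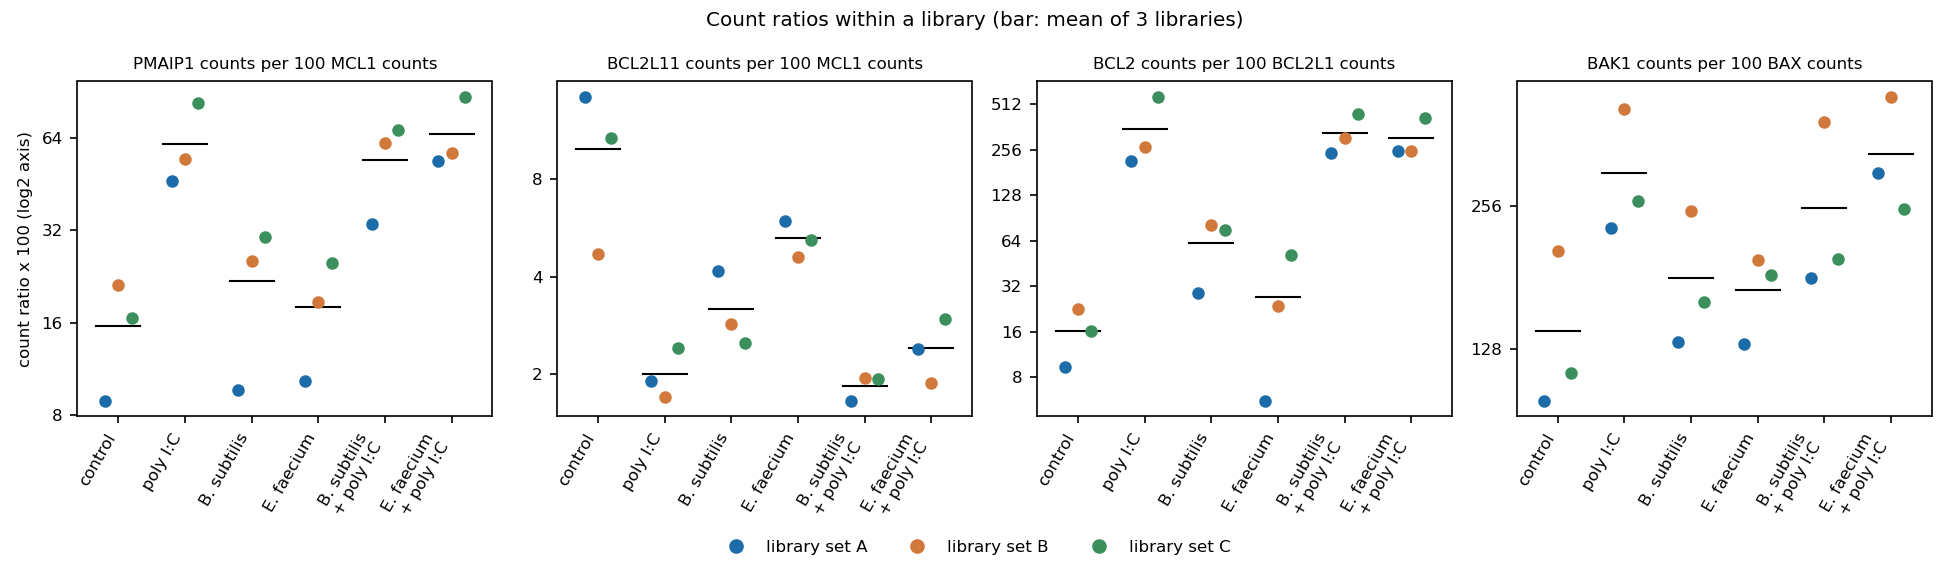
Count ratios within each library (log2 axis, counts of the first gene per 100 counts of the second) by treatment, with 1 point per library coloured by set and a bar at the mean of 3 libraries. PMAIP1 per MCL1 and BCL2 per BCL2L1 are higher in every poly I:C library than in any control, and BCL2L11 per MCL1 is lower in every poly I:C and B. subtilis library than in any control.

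Adding a bacterium to poly I:C changed 0 of the 10 genes past the threshold. For B. subtilis plus poly I:C against poly I:C alone, 0% of all genes were called by edgeR (1423 genes at an unadjusted p below 0.05, of which BCL2A1 was the 1 member) and DESeq2 called 28 genes (0 members). BCL2A1 had a log2 difference of 0.84 (95% interval 0.22 to 1.47; edgeR adjusted p = 0.447) and BAX of 0.64 (95% interval -0.02 to 1.31; edgeR adjusted p = 0.489). In both genes set B stood apart: the differences in sets A, B and C were 0.86, 0.01 and 1.42 for BCL2A1 and 0.80, 0.10 and 0.79 for BAX. Without the B. subtilis plus poly I:C library of set B, BCL2A1 (1.14; edgeR adjusted p = 0.0104) and BAX (0.95; edgeR adjusted p = 0.0305) were called, and 2087 of all genes with them. For E. faecium plus poly I:C against poly I:C alone, 0% of all genes were called (38 at an unadjusted p below 0.05, 0 of them members; 0 by DESeq2), and the member differences ran from -0.33 for BID (95% interval -1.35 to 0.69) to 0.36 for BCL2L11 (95% interval -0.31 to 1.02).

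The bacteria were also set against each other and tested for a change that depends on poly I:C. E. faecium against B. subtilis called 0 members and 0.177% of all genes with edgeR; BCL2 (log2 difference -1.86, 95% interval -3.16 to -0.57; edgeR adjusted p = 0.277) and BCL2L1 (-0.65, 95% interval -1.27 to -0.02; edgeR adjusted p = 0.553) had an unadjusted p below 0.05, and DESeq2 called 0 members. With the set as a block the BCL2 difference was -1.98 (edgeR adjusted p = 0.00511). All 3 E. faecium libraries were below all 3 B. subtilis libraries for BCL2L1, and for BCL2 the groups overlapped, since the E. faecium library of set C (28.3 CPM) exceeded the B. subtilis library of set A (25.2 CPM). The interaction of B. subtilis with poly I:C called 0 members and 0.0368% of all genes with edgeR; BCL2 (-2.33, 95% interval -4.12 to -0.53; edgeR adjusted p = 0.432) and BCL2L11 (1.00, 95% interval 0.06 to 1.94; edgeR adjusted p = 0.537) had an unadjusted p below 0.05, and DESeq2 called 0 members. With the set as a block the BCL2 term was -2.20 (edgeR adjusted p = 0.0273), from a B. subtilis change of 2.64 without poly I:C and 0.44 with it in the same fit. The interaction of E. faecium with poly I:C called 0 members and 0% of all genes (95 genes at an unadjusted p below 0.05, 0 of them members; 0 members by DESeq2).

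**Figure D5:**
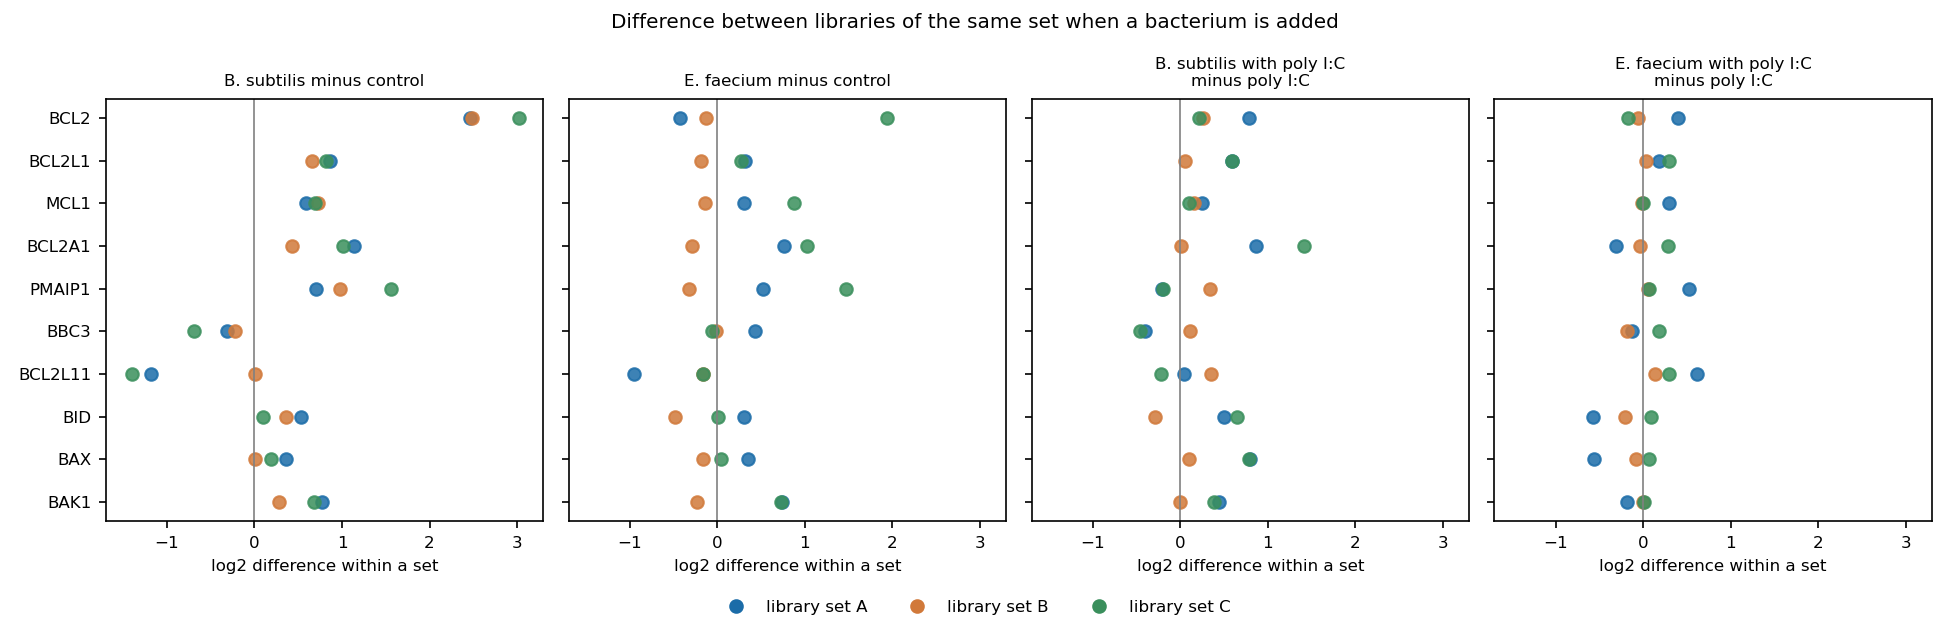
Log2 difference between libraries of the same set when a bacterium was added, alone (left panels) or on top of poly I:C (right panels), with 1 point per set. B. subtilis alone is right of 0 in all 3 sets for the 4 survival genes and for PMAIP1, BID, BAX and BAK1. For BID, BAX and BAK1 the differences are 0.003 to 0.77. Of the genes right of 0 in all 3 sets, edgeR without a block called only BCL2. The share of all genes tested that do the same was not computed, and the sets were found in the same data. With E. faecium alone BCL2 is at 1.93 in set C and at or under -0.13 in sets A and B.

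Genes around the 10 members were read from lists of the same pathway. Percentages of all genes given beside the lists are from the fit without a block. With the set as a block 5668 of 13592 genes were called with poly I:C and 2504 with B. subtilis. That fit called 7416 genes with B. subtilis plus poly I:C and 5811 with E. faecium plus poly I:C. Counts of a list with the block are to be set beside these. Of 13 other BCL2 family genes, 9 could be tested; 1 rose and 3 fell with poly I:C (22.5% of all genes were called), with a median log2 change of -0.45 beside -0.01 for all genes. With the set as a block 4 fell, and with E. faecium plus poly I:C 2 fell without the block and 5 with it. BCL2L14 rose by 3.03 on the log2 scale (SE 0.30). BMF, a BH3-only gene, fell by 1.03 (SE 0.26), BNIP3L, a receptor for the removal of mitochondria, fell by 0.84 (SE 0.27) and BCL2L13 fell by 0.54 (SE 0.15). BMF also fell with B. subtilis alone, by 0.96 (SE 0.26), the only other family gene called there without the block (1 rose and 1 fell with it). With B. subtilis plus poly I:C it fell by 1.54 (SE 0.27).

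Downstream of the mitochondrion, 6 of 12 caspase and apoptosome genes rose and 2 fell with poly I:C, beside 22.5% of all genes called, with a median log2 change of 0.58. The largest rises were in CASP10 (2.18, SE 0.29), an initiator caspase of death receptors, and CFLAR (1.86, SE 0.33), whose protein restrains caspase-8. CASP6 (-1.17, SE 0.32) and CASP2 (-0.98, SE 0.27) fell. With B. subtilis alone CFLAR (1.70, SE 0.33) and CASP10 (1.33, SE 0.28) rose and none fell (with the set as a block 3 rose and 1 fell), beside 4.44% of all genes. With B. subtilis plus poly I:C 6 rose (7 with the block) and 4 fell beside 35.6% of all genes, the lowest of them CASP9 (-1.57, SE 0.37), the caspase that the apoptosome activates. With E. faecium plus poly I:C 6 rose, led by CASP10 (2.18, SE 0.29), and 2 fell, the lower being CASP6 (-1.09, SE 0.31).

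IAP proteins bind caspases and act after the mitochondrion. For the lists of this paragraph, the share of all genes called without a block was 22.5% with poly I:C and 4.44% with B. subtilis. It was 35.6% with B. subtilis plus poly I:C and 23.1% with E. faecium plus poly I:C. Counts in such short lists are not read as a result about a list. Of 9 IAP genes and antagonists 6 could be tested, and BIRC3 (2.02, SE 0.39) and XIAP (1.16, SE 0.27) rose with poly I:C while none fell (3 rose with the set as a block). BIRC3, a target of NF-kB, also rose with B. subtilis alone (1.61, SE 0.38). DIABLO, which antagonises the IAP proteins, rose with B. subtilis plus poly I:C (0.96, SE 0.22). Of 8 genes of the mitochondrial gate and channel list, TMBIM6, which encodes an endoplasmic reticulum protein known as a BAX inhibitor, rose with B. subtilis plus poly I:C (1.55, SE 0.33) and was the only one that edgeR called in the 5 comparisons with control without a block. With the set as a block 1 rose and 1 fell with poly I:C and with B. subtilis plus poly I:C, 1 rose with B. subtilis, and 2 rose and 2 fell with E. faecium plus poly I:C. Of 8 genes for turnover of family proteins 6 could be tested; MARCH5, a ubiquitin ligase of the mitochondrial outer membrane (1.88, SE 0.18), and USP9X, a deubiquitinase of MCL1 (1.48, SE 0.36), rose with poly I:C. With the set as a block 1 gene of this list rose with B. subtilis in place of 0, and 3 rose with B. subtilis plus poly I:C in place of 1 and with E. faecium plus poly I:C in place of 2.

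Upstream, 3 of 12 genes of the p53 pathway rose and 2 fell with poly I:C (3 and 5 with the set as a block), beside 22.5% of all genes called, with a median log2 change of -0.39. SESN2 (1.61, SE 0.40), ZMAT3 (1.43, SE 0.21) and CDKN1A (0.85, SE 0.27) rose, and PHLDA3 (-2.41, SE 0.40) and TP53INP1 (-1.51, SE 0.42) fell. CDKN1A (1.55, SE 0.27) rose and PHLDA3 (-2.16, SE 0.39) fell with B. subtilis alone, and with the block 3 rose and 2 fell. The combination of B. subtilis with poly I:C raised 3 and lowered 5 (3 and 6 with the block), and with E. faecium plus poly I:C 3 rose and 3 fell (4 and 5). Without a block 35.6% and 23.1% of all genes were called in these comparisons, and 4.44% with B. subtilis alone. Of 15 transcription factors known to act on genes of the family, 8 rose and 1 fell with poly I:C, with a median log2 change of 1.11. Without a block 22.5% of all genes were called there. With the set as a block 10 rose and 1 fell, beside 5668 of 13592 genes called. The largest rises were in IRF7 (3.44, SE 0.53), NFKB2 (2.43, SE 0.39) and NFKB1 (1.99, SE 0.34). MITF, which drives BCL2 in pigment cells, fell by 1.59 (SE 0.21). With B. subtilis alone NFKB2 (2.32, SE 0.39) and NFKB1 (1.62, SE 0.34) rose and MITF fell by 0.80 (SE 0.21), and with the block 4 rose. In cells with B. subtilis plus poly I:C 10 rose and 1 fell (10 and 2 with the block), and with E. faecium plus poly I:C 8 rose (11 with the block) and 1 fell. With E. faecium alone 0 genes of any of these lists passed in edgeR, with or without the set as a block.

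The genes whose pattern over the 18 libraries was most like that of MCL1, the survival gene with the smallest p over all treatments, were TERF2IP (Pearson r of log2 CPM 0.986), RHBDD1 (0.984) and PIM3 (0.984). For PMAIP1, the death-promoting gene with the smallest p, they were TAP2 (0.993), HERC6 (0.991) and IFIH1 (0.990), the last of which encodes a sensor of double-stranded RNA. These correlations describe 18 libraries that share treatments and library sets.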

How the data were processed

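The deposited table holds the authors' raw counts, 1 whole number per gene and library, with no normalization. Per the submitters' processing notes reads were placed on Sscrofa11.1 and DESeq2 took part; the sources used here do not name the aligner, the counting tool, the annotation release or the use of strand. Rows are keyed by gene ID, and 30335 of 30686 were found in RefSeq's gene table for Sscrofa11.1, which gave the coordinates; the other 351 rows held 0.515 to 1.04% of the counts. Genes annotated across BCL2, BCL2L1, BCL2L11, BID and BAK1 had mean counts of at most 61.8 per library, beside 520 or more for these members, and reads of the overlaps cannot be told apart.

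The main test was edgeR's quasi-likelihood test (version 4.0.16, in R 4.3.3), with TMM scaling (factors 0.664 to 1.38), filterByExpr at a minimum count of 10, 1 mean per treatment over all 18 libraries and no block. P-values were two-sided and adjusted by Benjamini-Hochberg over the 13592 genes, at a threshold of 0.05. Levels are TMM-scaled CPM, and log2 levels use a prior count of 2. The fit was first tested on simulated counts. No 2 libraries of a treatment held identical values. The labels name pigs 1 to 3; in residuals the numbers paired control, poly I:C and B. subtilis with poly I:C (9 pairs, every correlation at least 0.413) and not the other treatments.

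The members and lists were chosen with earlier results of these data known. All 10 members are named in every comparison with control; from each pathway list up to 3 called genes with the highest and 3 with the lowest change were eligible, and the 3 genes nearest in pattern. A ratio of roles scaled by transcript length had been planned and was not made, because transcript lengths were not used here, so levels are not compared between genes. Alternatives were RLE scaling, DESeq2 1.42.0, no filter on low counts, the pig number or the library set as a block, only the compared treatments in the fit, and leaving out each library. After seeing the data 2 were added: the pig number as a block in a fit of the 3 paired treatments, and role means without BCL2. Values of some genes of the lists are not reported here.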

Additional observations from a re-analysis of the deposited data

How the results depend on the processing

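Counts of the 10 genes past the threshold were compared over RLE scaling, DESeq2, no filter on low counts, 2 kinds of block and a fit of only the treatments compared. The count for B. subtilis, 1 in the unblocked edgeR fit, was 6 with the library set as a block, 2 with DESeq2 and 3 in the fit of control and B. subtilis alone, and it ran from 0 to 2 when single libraries were left out. Over all 13592 genes the count for B. subtilis rose as well, from 604 to 2504 with that block, 1151 with DESeq2 and 768 in that smaller fit. For E. faecium against B. subtilis and for the interaction of B. subtilis with poly I:C the set as a block gave 1 member in place of 0. For B. subtilis plus poly I:C against poly I:C, leaving out single libraries gave 0 to 2 members. The pig number as a replicate block left 6 members for poly I:C, 1 for B. subtilis and 7 for B. subtilis plus poly I:C and changed no call of a member. In control, poly I:C and B. subtilis plus poly I:C, where the number pairs the libraries, the replicate block in a fit of these 3 alone, an alternative chosen after seeing the data, gave 6 members for poly I:C, 8 for B. subtilis plus poly I:C (BBC3 added, -0.71, edgeR adjusted p = 0.0197) and 0 between them. Leaving BCL2 out of the survival mean moved the death-promoting minus survival difference from -0.47 to 0.32 for poly I:C, from -0.76 to 0.0228 for B. subtilis plus poly I:C, from -0.54 to 0.24 for E. faecium plus poly I:C and from -1.09 to -0.62 for B. subtilis. BAX with B. subtilis plus poly I:C was not past the threshold without the filter (0.82, edgeR adjusted p = 0.0619) or with only those treatments in the fit (0.87, edgeR adjusted p = 0.127).

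Of 100 member values, 36 had a 95% interval without 0 or a call in some setting and were given a direction, and 0 of these changed sign in any alternative. The other values were given no direction in this comparison, although within-set differences are described above for some of them. Of all 1350 recomputed values 81 changed sign, each of them without a direction, and 68 of these when a library was left out. Over all genes the set as a block called 5668 genes for poly I:C, 2504 for B. subtilis, 7416 for B. subtilis plus poly I:C and 5811 for E. faecium plus poly I:C, 927 between the bacteria (24 without it) and 521 for the interaction of B. subtilis with poly I:C (5 without it). DESeq2 called 1151 genes with B. subtilis, 276 between the bacteria and 115 for that interaction; the fit of only the compared treatments called 2718 with B. subtilis plus poly I:C. With 3 libraries per treatment the 95% intervals of BCL2, PMAIP1 and BID reached about 1 log2 unit or more on either side. Larger differences were also left uncalled. Examples are PMAIP1 with B. subtilis (1.16, edgeR adjusted p = 0.253) and BCL2 between the bacteria (-1.86, edgeR adjusted p = 0.277). A difference of these genes that was not called is therefore not read as absent.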
